A study of Mus musculus with 28 samples.

Results

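The mouse hairpin Mir22 yields 2 mature miRNAs, mmu-mir-22-3p (miR-22-3p) and mmu-mir-22-5p (miR-22-5p), and both arms were followed through small RNA libraries of alveolar macrophages (AM). They are 2 of the 607 miRNAs listed in at least 1 of the 4 deposited tables and 2 of the 308 listed in all 4. The rows were found by name, and the pair had been chosen by what earlier work on these data showed of filtered air (FA) against ozone (O3), so the O3 and FA values of the arms are given as a description with no test. The comparisons of sex and genotype did not enter that choice and were tested. The ratio of the arms in each library was named in the choice, so its tests between sexes and genotypes are not free of it.

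AM were washed from the lungs of mice 12 weeks of age that had breathed FA or O3 for 3 h and then recovered for 4 h. All mice lacked the mouse surfactant protein A (SP-A) and had C57BL/6 as their strain in the labels. In the methods the co-ex line was made on a KO background of C57BL/6J. The KO mice had no SP-A, and the humanized co-ex mice carried human SP-A1 and SP-A2 together, in the one pair of variants 6A2/1A0. Males and females were taken apart, which gave 8 groups and 28 libraries in all: each of the 4 co-ex groups had 4 libraries, and each of the 4 KO groups had 3. SP-A is made by lung epithelial cells. These small RNA libraries were counted for miRNAs only, so neither the deletion nor the transgene can be checked in them.

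A miRNA hairpin is cut into a duplex of 2 strands, and one strand is usually kept by an Argonaute protein while the other is degraded. The retained strand recognizes messenger RNAs mainly through its seed, bases 2 to 8. miR-22 is conserved among vertebrates, and its 3p strand is known for repressing Tet2, which oxidizes methylated DNA and restrains inflammatory genes in macrophages. The 5p strand is much less studied.

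The sequences below show why the arms can be counted apart. They are the RefSeq entries placed on GRCm38.p6, with the seed in capitals for each mature arm and both arms in capitals for the hairpin.
mmu-miR-22-5p: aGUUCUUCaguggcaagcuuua
mmu-miR-22-3p: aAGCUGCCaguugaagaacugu
Mir22 hairpin: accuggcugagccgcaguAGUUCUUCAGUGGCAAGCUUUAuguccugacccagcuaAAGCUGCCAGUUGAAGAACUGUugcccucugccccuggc
The hairpin of 95 bases lies on the plus strand at chr11:75463716-75463810, the 5p arm at chr11:75463734-75463755 and the 3p arm at chr11:75463772-75463793. In the GENCODE annotation of GRCm38 the hairpin is exonic, within exon 2 of both annotated transcripts of the noncoding host gene Mir22hg, which spans chr11:75461539-75466676. Each arm is 22 bases long, and the seeds GUUCUUC and AGCUGCC differ. No other mature mouse miRNA of the reference has either seed, and no other of its 1005 hairpins holds 18 bases in a row of either arm. Copies with a mismatch in the middle, or outside these hairpins, were not searched for.

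The deposited values were whole multiples of one step in each library, so the reads were recovered. The total over the miRNAs listed ranged from 41542 to 2082034 reads (median 490152). The 6 myeloid markers looked for, among them miR-223-3p and miR-142a-3p, were found in all 8 groups and made up 4.25% to 22.3% of a library's reads. Found means any read in a library of the group. In co-ex females 5 of the 6 passed the filter on low values, and miR-142a-3p did not. Markers of other cells were present too. Their highest sums in any library were 5.01% for epithelial, 13.7% for red cell, 2.58% for mesenchymal, 8.53% for muscle, 0.718% for endothelial and 0.575% for lymphocyte markers, and they are given again where they moved with an arm. Fewer cells of a type and less RNA per cell cannot be told apart in these bulk libraries. The labels do not tie libraries to single animals, so the p-values measure the spread between these libraries.

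miR-22-3p was the more abundant strand in 28 of 28 libraries. It had between 215 and 9373 reads, which was 0.161% to 0.521% of a library's reads, and it stood between rank 37 and rank 69 by abundance. miR-22-5p had between 14 and 307 reads in the 26 libraries where it was found, at ranks 101 to 227. In these 26 libraries the 3p arm had 5.08 to 67.9 times the reads of the 5p arm (median 24.2 times). No read of miR-22-5p was present in FA replicates 3 and 4 of co-ex males.

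After FA or O3 in co-ex females, miR-22-3p did not separate the exposures. Its normalized value, the reads divided by the size factor that the authors set within the table, was 696, 448, 850 and 738 after FA and 865, 501, 343 and 483 after O3, and the groups overlapped. The mean was 683 ± 170 after FA and 548 ± 223 after O3 (SD, n = 4 each), a ratio of O3 to FA of 0.802. The 5p arm had a wider spread: miR-22-5p was at 22.3, 19.7, 26.2 and 10.9 after FA and at 88.5, 22.3, 17.7 and 38.4 after O3. O3 replicate 1, the shallowest of all 28 libraries, held the high value with 22 reads, and the groups overlapped. The ratio of the means was 2.11, and the O3 minus FA difference on the log2(value + 1) scale of 0.83 (SE 0.75, limma) fell to 0.38 without that library.

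In co-ex males miR-22-3p was at 908, 879, 766 and 858 after FA and at 1388, 1830, 1022 and 1116 after O3. On the scale of the table, all 4 O3 libraries were above all 4 FA libraries. The means were 1339 ± 362 and 853 ± 61.5 (SD, n = 4 each), a ratio of 1.57. Over the 312 miRNAs tested in that table, 2.24% had every O3 library above every FA library. The separation of miR-22-3p depended on the scaling. In CPM, the scale defined below for comparing groups, FA replicate 1 was at 3128 and O3 replicate 4 at 3065, so the exposures overlapped. miR-22-5p was at 36.0, 42.6, 0 and 0 after FA and at 49.4, 50.4, 38.9 and 31.8 after O3. The log2 difference of 2.76 (SE 1.25) was taken with the FA libraries at 0. Without them it was 0.10 (SE 0.53), and the ratio of O3 to FA over the libraries with reads was 1.09.

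Those libraries had 126398 and 181805 reads in total and 281 and 587 reads of miR-22-3p. A count of 0 allows a share of the 5p arm of up to 1.07% and 0.511% of the reads of both arms. All the other 159 miRNAs at least as abundant as miR-22-5p, by their median over the 28 libraries, had reads in both. At most 10 of these 159 were at 0 in any library, and that was the shallowest one. Whether miR-22-5p was missing from this RNA or was lost in sequencing or counting was not tested, so the differences of miR-22-5p and of the arm ratio that include these libraries are also given without them.

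**Figure D1:**
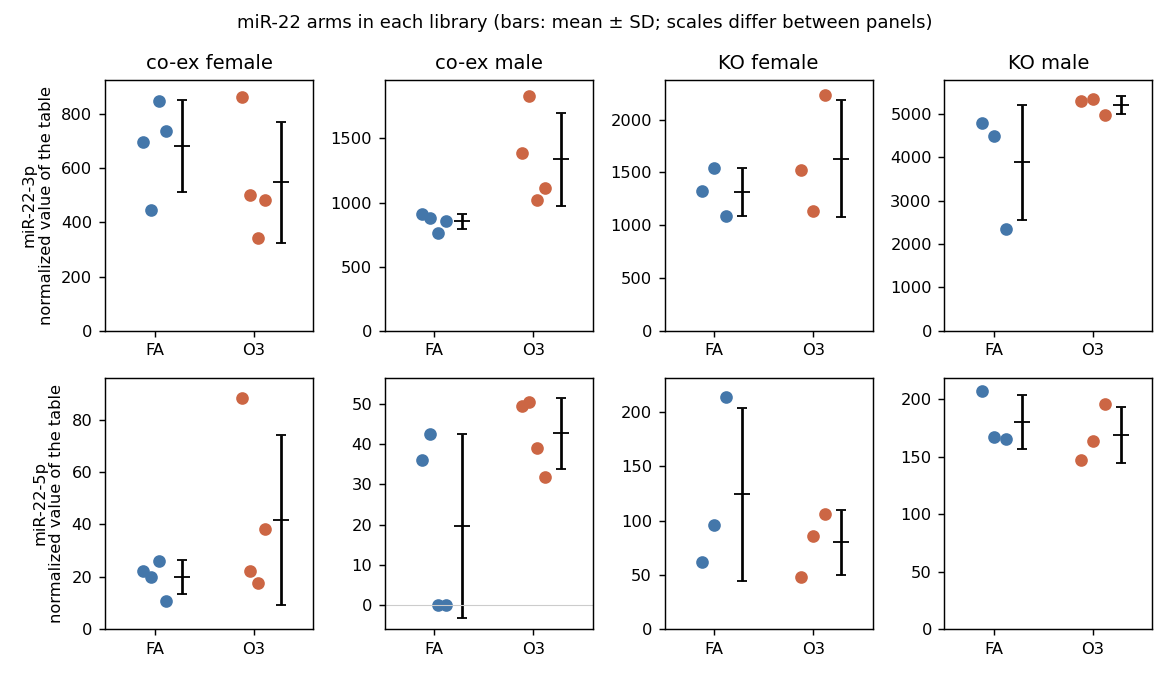
Normalized value (y axis, on the scale of each table) of miR-22-3p (top row) and miR-22-5p (bottom row) in each library after FA (blue) and O3 (orange), with the mean ± SD as black bars. On this scale the O3 libraries lie above the FA libraries for miR-22-3p in co-ex males and KO males. For miR-22-5p, 2 FA libraries of co-ex males lie at 0.

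In KO females miR-22-3p was at 1324, 1543 and 1089 after FA and at 1523, 1137 and 2228 after O3. The groups overlapped and the ratio of the means was 1.24. The log2 difference of 0.26 (SE 0.32) fell to 0.01 without O3 replicate 3, the highest library. That library also had the highest muscle, mesenchymal and endothelial marker sums among KO females (8.53%, 0.503% and 0.0674% of reads). The muscle sum was 0.00185% and 0.0720% in the other O3 libraries and 0.00289% to 0.0124% after FA. The part of these markers was not tested. miR-22-5p was at 62.1, 95.9 and 214 after FA and at 47.5, 86.1 and 106 after O3, again with overlap. FA replicate 3 was the highest, and the log2 difference of -0.51 (SE 0.68) was -0.03 without it. Epithelial markers moved in this table: 10 of 11 were found after FA, with miR-34b-5p at 0, and 11 of 11 after O3. Their summed share was 0.168% to 0.463% of reads after FA and 2.11% to 3.67% after O3, and their part in the values of the arms was not tested.

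In KO males miR-22-3p was at 4795, 4493 and 2352 after FA and at 5292, 5348 and 4962 after O3, with every O3 library above every FA library. The ratio of the means was 1.34. In that table, 7.73% of the 440 miRNAs tested had every O3 library above every FA library. The log2 difference of 0.49 (SE 0.38) was 0.16 without FA replicate 3. In FA replicate 3 the epithelial markers summed to 2.83% of reads, the mesenchymal ones to 2.58% and the endothelial ones to 0.718%, against 0.225% and 0.273% epithelial, 0.0833% and 0.0817% mesenchymal, and 0.00112% and 0.00107% endothelial in the other FA libraries. All 11 epithelial markers were found in both groups, and their sum was 2.17% to 2.81% after O3. Its myeloid markers had the lowest sum of the 28 libraries (4.25%). The part of these markers in its low miR-22-3p was not tested. miR-22-5p was at 207, 167 and 166 after FA and at 147, 164 and 196 after O3, a ratio of the means of 0.939.

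Neither arm passed an adjusted p of 0.1 in limma in any table. Their adjusted p was 0.891 for both in co-ex females, 0.944 for both in co-ex males, 0.650 and 0.680 in KO females and 0.939 and 0.970 in KO males, with the 3p arm first. Because the contrast took part in the choice of the arms, nothing is read from these. Among females, limma called 0.369% of the 271 miRNAs tested in co-ex mice and 13.2% of 319 in KO mice. Among males, it called 0% of 312 in co-ex mice and 0.909% of 440 in KO mice. The KO male count of 4 became 86 without FA replicate 3, the library with the lowest myeloid sum. In co-ex males 11 miRNAs had an unadjusted p under 0.05 in limma, and edgeR and DESeq2 on the reads called 0 as well. Among females, where neither arm separated, full separation of O3 from FA in either direction was seen for 4.06% of the miRNAs in co-ex mice and 31.3% in KO mice.

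The share of the 5p arm in the reads of both arms does not depend on how a library was scaled. In co-ex females it was 3.11%, 4.22%, 2.99% and 1.45% after FA and 9.28%, 4.27%, 4.92% and 7.35% after O3. All O3 libraries were above all FA libraries, by a narrow gap between 4.22% (exact 95% binomial interval 3.21% to 5.43%) and 4.27% (2.81% to 6.19%). The intervals cover counting error only. On the log2 scale of the ratio of 5p to 3p, O3 was 1.20 above FA (SE 0.43), and leaving out single libraries gave 0.89 to 1.41. Red cell markers moved in the same table. The 4 of 5 listed there summed to 1.28% to 13.7% of reads after FA and 0.293% to 0.428% after O3. One of them, miR-486b-5p, was the only miRNA that limma called in that table (log2 difference -3.19, SE 0.61, adjusted p = 0.0341). On the reads, edgeR called 1 red cell marker and DESeq2 0. The 11 epithelial markers summed to 1.30% to 3.28% after FA and 2.61% to 5.01% after O3, with 2 at an unadjusted p under 0.05 in limma and a median log2 difference of 0.98 against -0.16 over all miRNAs. The part of these markers was not tested.

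In co-ex males the 5p share was 3.82%, 4.62%, 0% and 0% after FA and 3.44%, 2.68%, 3.67% and 2.77% after O3. The mean log2 ratio was 2.14 higher after O3 (SE 1.51), but it was 0.44 lower after O3 without the libraries at 0, a log2 difference of -0.44, and -0.18 for the summed reads of each group. The direction therefore depended on those FA libraries.

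In KO females the 5p share was 4.48%, 5.85% and 16.5% after FA and 3.03%, 7.04% and 4.53% after O3. FA replicate 3, with 307 reads of miR-22-5p against 1559 of miR-22-3p, had the highest share of all libraries, and its exact 95% interval of 14.8% to 18.2% lay above the shares of the other 27 libraries. The log2 difference of -0.77 (SE 0.74) was -0.15 without it. In KO males the share was 4.14%, 3.59% and 6.58% after FA and 2.71%, 2.98% and 3.79% after O3. These groups overlapped by a single library, with a log2 difference of -0.58 (SE 0.32) that was -0.31 without FA replicate 3. The mean log2 ratio was thus higher after O3 in co-ex females and lower after O3 in both KO sexes, where the groups overlapped. In co-ex males its direction depended on the libraries at 0. The contrast took part in the choice of the arms, so no difference between genotypes is read from these directions.

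**Figure D2:**
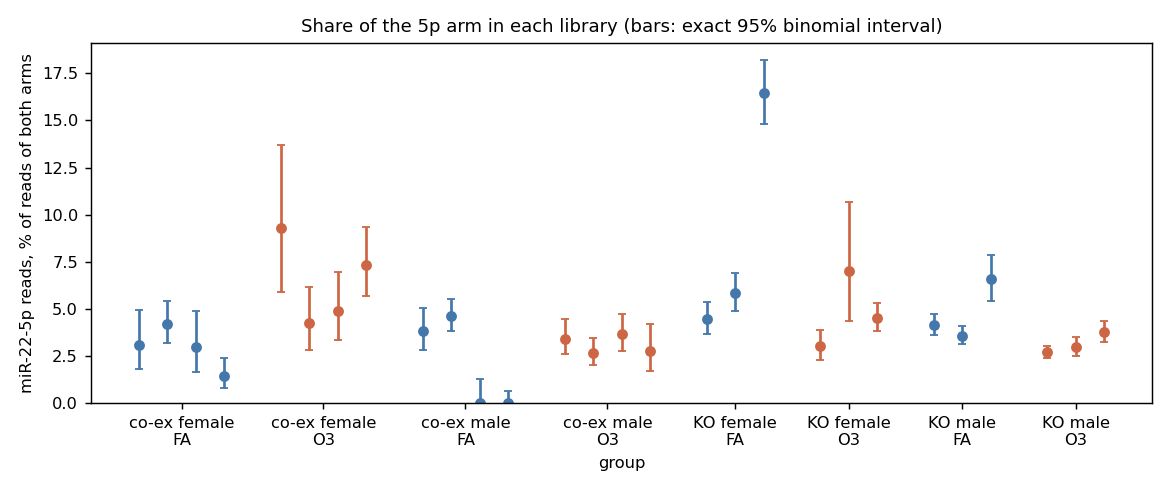
Share of miR-22-5p in the reads of both arms (y axis, percent) in each of the 28 libraries by group (x axis), after FA (blue) and O3 (orange), with exact 95% binomial intervals. The median library was at 3.81%, FA replicate 3 of KO females stood at 16.5% and 2 FA libraries of co-ex males were at 0%.

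The arm ratio of miR-22 was set beside that of all 37 hairpins with both arms above the filter in all 4 tables. In 22 of the 37 the major arm was ahead in every library, as for miR-22, and 14 of the 37 had a minor arm with a smaller share of the summed reads. The minor arm was the 5p arm in 16 of the 37. In co-ex females the O3 minus FA change of log2(minor/major) was -0.22 for the median hairpin, and 8 hairpins changed by more than the 1.20 of miR-22 in either direction, 2 of them upward. Of the 37, 2.7% had every O3 library above every FA library, and this was miR-22 alone. miR-22 was chosen with this contrast known, and its gap was narrow (5p shares of 4.22% and 4.27%), so nothing is read from it. In co-ex males 1 hairpin changed more than miR-22, in KO females 17 and in KO males 6 did so in either direction. The co-ex male place of miR-22 was taken with the FA libraries at 0. Its change there was 2.14 with them and -0.44 without them, and the hairpins were not ranked without them. The spread of the log2 ratio within groups was 1.29 for miR-22 and 1.25 for the median hairpin. Without the 2 libraries at 0 it was 0.59 for miR-22, and 5 of the other hairpins had a smaller spread over the same 26 libraries.

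**Figure D3:**
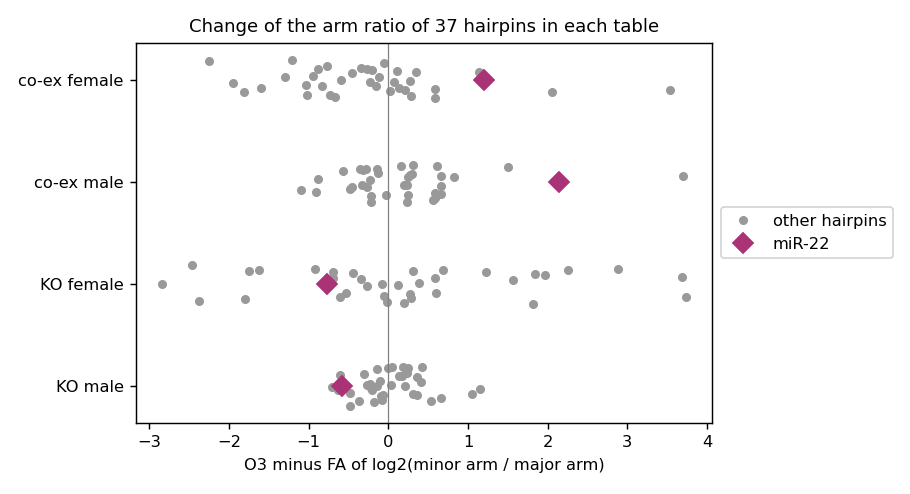
O3 minus FA difference of the mean log2 ratio of minor to major arm (x axis) for 37 hairpins in each table (y axis), with miR-22 as a diamond and the other hairpins in grey. miR-22 lies at 1.20 in co-ex females, 2.14 in co-ex males, -0.77 in KO females and -0.58 in KO males. The co-ex male value includes the FA libraries with no 5p reads and was -0.44 without them.

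To compare the groups with each other, the reads of the 303 miRNAs listed in all tables that passed edgeR's filter on low counts were placed on one scale as CPM, counts divided by a library total corrected with TMM factors. miR-22-3p was highest in KO males after O3 (4783 ± 104 CPM, n = 3) and lowest in co-ex males after FA (2549 ± 525, n = 4). Between them came co-ex females after FA (3789 ± 977), co-ex males after O3 (3611 ± 561), KO males after FA (3382 ± 1119), KO females after O3 (3278 ± 1203), co-ex females after O3 (3016 ± 914) and KO females after FA (2850 ± 376). The gap below the first group was larger than the SD of both neighbours, and none of the other gaps were.

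Over the 28 libraries the level of miR-22-3p stayed between 1941 and 4846 CPM. Its SD within groups was 0.37 on the log2 scale against 1.43 for the median miRNA, and 5 of the 303 had a smaller one. For miR-22-5p this SD was 1.67, with 180 of the 303 below it. It includes the co-ex male FA libraries at 0 and was not taken without them, so its place among the 303 is not read further.

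miR-22-5p was highest in KO females after FA (271 ± 182 CPM, n = 3), followed by co-ex females after O3 (223 ± 149), KO females after O3 (160 ± 61.8), KO males after FA (157 ± 18.2) and KO males after O3 (156 ± 25.3). Below these lay co-ex males after O3 (117 ± 21.1), co-ex females after FA (109 ± 35.2) and co-ex males after FA (65.1 ± 75.3). The last mean includes the libraries with no 5p reads, and its place rests on them. The co-ex male FA libraries with reads were at 124 and 136 CPM, above the means of co-ex males after O3 and co-ex females after FA. The order and the gaps given here were not taken without the libraries that had no 5p reads. Of the gaps between neighbours, the one between KO males after O3 and co-ex males after O3 exceeded both SDs. The order of the groups was not the same for the arms: co-ex females after FA ranked second for miR-22-3p and seventh for miR-22-5p.

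**Figure D4:**
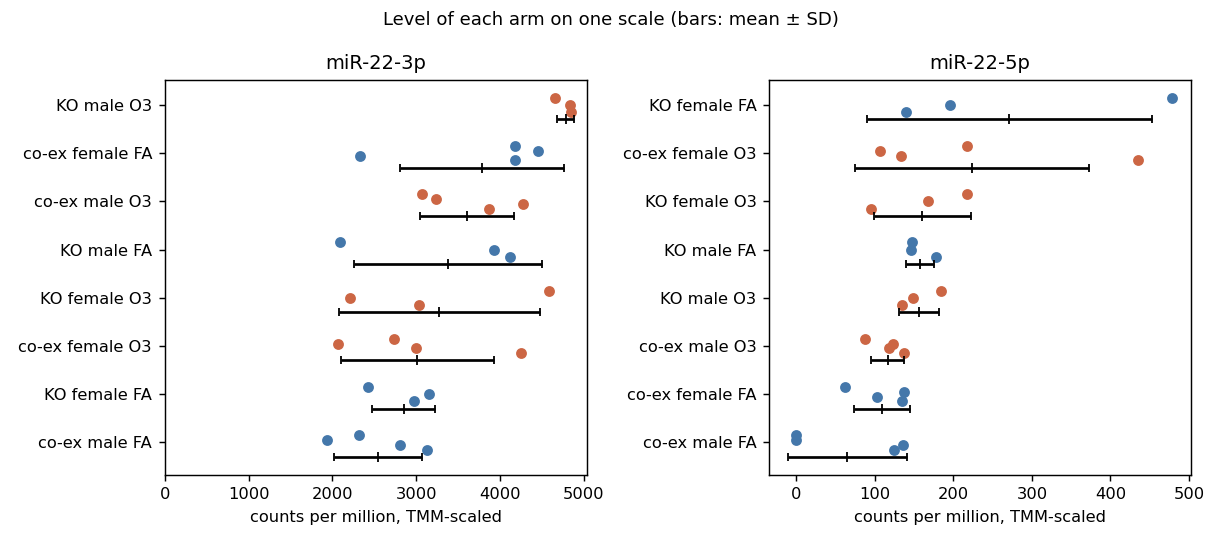
Level of miR-22-3p (left) and miR-22-5p (right) in CPM scaled by TMM (x axis) in the 8 groups (y axis, ordered by mean), after FA (blue) and O3 (orange), with mean ± SD in black. Most bars overlap, and miR-22-3p in KO males after O3 is a tight group between 4663 and 4846 CPM. The miR-22-5p mean of co-ex males after FA includes the libraries with no 5p reads.

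Males and females, and co-ex and KO mice, were then compared by edgeR's quasi-likelihood test, averaged over FA and O3. Neither arm passed the adjusted threshold of 0.1 in any of the 4 comparisons. In co-ex mice the log2 difference of males from females was -0.15 for miR-22-3p (SE 0.23, edgeR adjusted p = 0.683), while 31.4% of the 303 miRNAs were called. miR-22-5p differed by -0.79 (SE 0.59, adjusted p = 0.378). DESeq2 gave -1.08 for it with an adjusted p of 0.0924, which passed. Without the co-ex male FA libraries at 0, the edgeR difference was -0.39 (SE 0.42, adjusted p = 0.559), and DESeq2 was not run without them. In KO mice the difference of males from females was 0.40 for miR-22-3p (SE 0.27, edgeR adjusted p = 0.457) and -0.41 for miR-22-5p (SE 0.66, adjusted p = 0.826), with 0.66% of miRNAs called.

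In females the co-ex minus KO difference was 0.14 for miR-22-3p (SE 0.25, edgeR adjusted p = 0.698) and -0.44 for miR-22-5p (SE 0.62, adjusted p = 0.633), and 38% of the miRNAs were called. In males it was -0.41 for miR-22-3p (SE 0.25, edgeR adjusted p = 0.241) and -0.82 for miR-22-5p (SE 0.62, adjusted p = 0.343), with 32.7% called, and the 5p difference was -0.35 without the libraries at 0. Without FA replicate 3 of KO females, the library with the high 5p share, the 5p differences turned from -0.41 to 0.10 between the KO sexes and from -0.44 to 0.012 between the female genotypes. Each table holds 1 sex of 1 genotype, so anything that differed between tables cannot be told apart from sex or genotype.

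The log2 ratio of the arms was tested by exact two-sided permutation of libraries within FA and within O3. The ratio per library was named in the choice of the pair, so these p-values are not free of that choice. In co-ex mice it was lower in males by a log2 difference of -1.51 (SE 0.79, exact p = 0.0637, adjusted over the 4 comparisons 0.18, 4900 relabellings). After O3, where no library was at 0, it was -1.04. Without the 2 libraries that had no 5p reads the difference was -0.22, and without FA replicate 1 or 2 of co-ex males it was -1.92 and -1.96, with adjusted exact p of 0.0849 and 0.0490. In KO mice the males differed from the females by -0.69 (SE 0.40, exact p = 0.09, adjusted 0.18, 400 relabellings), and by -0.38 without FA replicate 3 of KO females. Between genotypes the difference was -0.53 in females (exact p = 0.311) and -1.36 in males (exact p = 0.260, adjusted 0.311). The female difference was -0.22 without FA replicate 3 of KO females. The male one was -0.065 without the libraries at 0 and -0.11 for summed reads.

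Of the 13 miRNAs known from activated macrophages, 7, 7, 9 and 12 were tested in co-ex females, co-ex males, KO females and KO males. In limma 2 of the 9 fell after O3 in KO females, against 13.2% of all miRNAs called there in either direction. They were let-7e-5p by 1.55 (SE 0.32, adjusted p = 0.0157) and miR-125a-5p by 1.26 (SE 0.38, adjusted p = 0.0801), which share one primary transcript with miR-99b. On the reads, edgeR called 1 of the 9 and DESeq2 2. In the same libraries 8 of the 10 epithelial markers tested rose (median log2 difference 3.59), and their part was not tested. For the other 3 sets of libraries, 0 passed in limma, edgeR or DESeq2, and 2, 0 and 0 had an unadjusted p under 0.05 in limma. The median of the list was -0.61 in KO females, against 0.06 over all miRNAs.

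Between groups, the share of the activation list called by edgeR was near or below that over all miRNAs, and nothing particular to the list is read from it. In co-ex mice 3 of 9 were higher in males, against 31.4% of all miRNAs called in either direction: miR-146b-5p, a brake on Toll-like receptor signaling, by 1.63 (SE 0.43, adjusted p = 0.00790), miR-125a-5p by 1.25 (SE 0.32, adjusted p = 0.00586) and let-7e-5p by 1.18 (SE 0.32, adjusted p = 0.00790). The same 3 were lower in co-ex than in KO females, where 38% of all miRNAs were called, by log2 differences of -1.78, -0.77 and -1.33 (adjusted p in edgeR 0.00472, 0.0850 and 0.00387 in this order). Among males, where 2 of 9 and 32.7% of all miRNAs were called, the co-ex minus KO difference was 1.33 for miR-125a-5p (SE 0.35, edgeR adjusted p = 0.00777) and -0.94 for miR-21a-5p, an abundant myeloid miRNA (SE 0.35, adjusted p = 0.0482). In KO mice 0 of 9 passed between the sexes in edgeR, with 2 at an unadjusted p under 0.05 and 1 called by DESeq2. Markers of other cells moved in the same comparisons. Of 11 epithelial markers, 5 were lower in males among co-ex mice and 9 were higher in co-ex than in KO females, and all 3 red cell markers tested were lower in co-ex than in KO males. Their part in these differences was not tested. The comparisons share groups, so they are not separate evidence.

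The 2 arms did not follow each other closely over the libraries. On log2 values with the mean of each table taken out, Pearson's r between the arms was 0.33 over 28 libraries and 0.21 over the 26 with 5p reads, and 29 of 228 other miRNAs had a higher r with miR-22-3p than its partner arm did. The 5 miRNAs closest to miR-22-3p were miR-1946a (r = 0.78), miR-872-3p (0.63), miR-709 (0.55), miR-185-5p (0.55) and miR-6538 (0.52). The 5 closest to miR-22-5p were let-7g-5p (0.53), let-7i-5p (0.52), miR-466f-3p (0.52), miR-132-3p (0.49) and miR-30b-5p (0.49). These neighbours were found over 28 libraries, with those at 0 for miR-22-5p included, and were not sought again without them. The libraries share depth and exposure, which enter every one of these values.

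Some of these neighbours had larger O3 minus FA differences than the arms. miR-872-3p was at -0.25 in co-ex females on the log2 scale and at 2.41, 3.68 and 3.05 in co-ex males, KO females and KO males, and miR-6538 was at 0.04, 3.24, 5.32 and 5.42. For miR-22-3p the same differences were -0.36, 0.62, 0.26 and 0.49. let-7g-5p, the closest to miR-22-5p, was at 0.36, 0.33, -0.34 and -0.36, against 0.83, 2.76, -0.51 and -0.09 for miR-22-5p.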

How the data were processed

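Small RNA was sequenced from AM in 28 libraries of 8 groups. According to the paper's methods, the authors ligated adapters with the NEXTflex kit, trimmed reads with the FASTX-Toolkit, and aligned and counted miRNAs with Chimira. The genome build and the miRBase release are not given in the sources used here. The deposited library columns hold a signal, the read count divided by a size factor, with size factors set separately for each table. The paper states 4 exposed animals per group, and KO groups had 3 libraries. The deposited tables also hold the authors' log2 fold changes, p-values and ranks, which were not used.

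Reads were recovered from the deposited signal (100% of values whole within 0.02 of a read). The lowest chi-square per degree of freedom of the 36 replicate pairs was 21.8, so no library was counted as a copy. O3 was compared with FA in each table with limma (trended prior, log2 of the value plus 1). A miRNA was kept if it reached 5 in at least the number of libraries of the smaller group. P-values had Benjamini-Hochberg adjustment at 0.1. Sexes and genotypes were compared by edgeR's quasi-likelihood test with TMM on the reads. The SE of an edgeR difference is its size divided by the root of F. Arm ratios used log2((5p + 0.5)/(3p + 0.5)). Intervals are exact Clopper-Pearson at 95%, and a count of 0 allows up to 3 reads. Tools were scipy 1.17.1, numpy 2.4.6 and pandas 2.3.3 in Python 3.11.15, with DESeq2 1.42.0, limma 3.58.1 and edgeR 4.0.16 in R 4.3.3. The fits were run on simulated data to check the code, and that run does not measure their power in these libraries.

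The arms and the lists were chosen with earlier results of these data known. The miRNAs named are both arms, for each arm the 5 of highest Pearson r among the 230 that passed the filter in all tables, and members of the activation list that passed in a table or comparison. Cell type markers are given mostly as sums and counts, and those named are examples. miR-142 was matched as miR-142a. One further list of miRNAs was set up and is not reported here. Same-numbered libraries of FA and O3 did not deviate together (r from -0.28 to 0.23, over 0.1 in 3 of 14 pairs). Alternatives were another scaling, no filter, a pseudocount of 0.1, edgeR or DESeq2 on the reads, a replicate block, leaving out each library, and, chosen after seeing the data, leaving out the libraries with no 5p reads in the fits.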

Additional observations from a re-analysis of the deposited data

How the results depend on the processing

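For the arms and their ratio, 24 results were followed under 378 alternative values, of which 369 either moved by less than 1 SD between replicates (O3 against FA, not tested) or kept their direction and side of the threshold (sex and genotype). The others follow. The O3 minus FA difference of miR-22-5p in co-ex males went from 2.76 to 0.10 without the libraries that had no 5p reads, and that of the log2 ratio of the arms to -0.44 without them and to -0.18 for summed reads. In KO males the O3 minus FA difference of miR-22-5p became 0.15 with each library scaled to its total. The lower miR-22-5p of co-ex males than co-ex females passed in DESeq2 (-1.08, adjusted p = 0.0924), and the cause was not tested. For the log2 ratio in the same comparison, leaving out single libraries gave -1.96 to -0.99, and it passed without FA replicate 1 (-1.92) or 2 (-1.96) of co-ex males, which raises the weight of the libraries at 0. Leaving out single libraries gave -0.54 to 0.10 for miR-22-5p between the KO sexes and -0.69 to 0.012 between the female genotypes, both turned by FA replicate 3 of KO females. With replicate number as a block, which the pairing check did not bear out, the miR-22-3p difference of co-ex males was 0.62, as without it, and the block changed no call of an arm. Counts of called miRNAs moved most in KO males for O3 against FA, from 4 to 15 with DESeq2, 2 with edgeR and 1 with the block. With single libraries left out they ranged from 0 to 86, and the 86 came without FA replicate 3. Between the KO sexes they moved from 2 to 14 with DESeq2 and 0 with the block. Full separation of O3 from FA was not among the results followed. For miR-22-3p in co-ex males it was lost in CPM, where FA replicate 1 lay above O3 replicate 4. Depth limits miR-22-5p, which had 0 reads in 2 libraries and as few as 14 in the others.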
